A study of Mus musculus with 14 samples.

Results

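The genes described here encode the transforming growth factor-beta (TGF-beta) ligands, their receptors and the latent TGF-beta binding proteins. They were chosen by name, as every row of the count table whose gene symbol is Tgfb1, Tgfb2, Tgfb3, Tgfbr1, Tgfbr2, Tgfbr3, Ltbp1, Ltbp2, Ltbp3 or Ltbp4. These are 10 of the 49315 genes in the table, and all 10 are among the 15292 with enough reads for a test. TGF-beta is secreted as an inactive complex in which the ligand stays wrapped in its own propeptide, and most of this complex is tied to the extracellular matrix by a latent binding protein. Integrins, proteases and matrix proteins release the ligand, which then brings the type II and type I receptor kinases together and signals through SMAD proteins to genes of the matrix and of feedback control. In the heart the pathway is known for its part in turning fibroblasts into matrix-producing cells and in the growth response to pressure overload.

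RNA was taken from the left ventricle of male mice and sequenced after poly(A) selection. WT mice were compared with HCN4F mice, which carry the Y527F exchange in the pacemaker channel gene Hcn4 as a knock-in and are described as a gain-of-function line. Mice of both genotypes underwent transverse aortic constriction (TAC), which narrows the aorta and loads the left ventricle with pressure, or a Sham operation at an age of 10 to 12 weeks, and hearts were collected 5 weeks later. The groups were WT-Sham (n = 4), WT-TAC (n = 2, replicates 2 and 3), HCN4F-Sham (n = 4) and HCN4F-TAC (n = 4). The knock-in exchanges an amino acid, so the level of Hcn4, at 3.49 to 13.5 CPM over the 14 libraries, checks neither genotype.

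The libraries held 22309914 to 35210939 counts each. Levels are given as CPM, counts per 1000000 reads of the library after TMM scaling between libraries. Cardiomyocyte, fibroblast and endothelial marker genes were present in every library, with none at 0. HCN4F-TAC replicate 3 stood apart from the other HCN4F-TAC libraries: it was the one nearest to the HCN4F-Sham mean for 9 of the 10 genes, the exception being Ltbp1. HCN4F-TAC replicate 2 stood apart too: of 6 atrial genes it had the highest level of 4, which were Nppa (1830 CPM, at most 1180 in the other libraries), Myl7 (9.91 CPM, at most 0.694), Myl4 (17.4, at most 4.07) and Sln (3.79, at most 0.285), while Bmp10 was at 0 and Tbx5 at 15.5 CPM (11.9 to 40.2 in the others). It had the highest summed level of red blood cell genes (366 CPM), and it was the library farthest from the HCN4F-Sham mean for 5 of the 10 genes. The changes after TAC in HCN4F are therefore given with and without each of these libraries. With 2 libraries, WT-TAC gives the comparisons that use it less precision than the others.

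Levels of different genes were compared per kilobase of exon. In WT-Sham, Ltbp4 was the most abundant of the 10 at 86.7 ± 3.73 CPM per kilobase (SD, n = 4). Tgfb1 followed at 7.16 ± 0.529 CPM per kilobase and Tgfb3 at 6.71 ± 0.405, and the libraries of this pair overlapped. Tgfbr3 at 5.9, Tgfbr2 at 5.78, Ltbp1 at 5.72 and Ltbp3 at 5.31 CPM per kilobase formed a run in which each neighbour overlapped the next. Below them, with no overlap between neighbours, came Tgfbr1 at 2.07, Tgfb2 at 1.47 and Ltbp2 at 0.367 CPM per kilobase. With the length of the longest transcript, Tgfb1 was at 14, Ltbp1 at 9.17 and Ltbp3 at 8.4 CPM per kilobase. Tgfb3 stayed at 6.71, below these 3 genes. The overlap of Tgfb1 and Tgfb3 and the order in the middle of the list therefore depend on the transcript model.

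The 2 genes with the largest differences between groups were Tgfb2, the least abundant ligand, and Ltbp2, the least abundant binder. Their promoters are shown because both genes changed with TAC in HCN4F mice by more than the other members. Windows of 300 bases, 250 before and 50 after the annotated start, come from RefSeq on GRCm38.p6, in which 8 of the 10 genes have a window. The Tgfb2 window is chr1:186705940-186706239 on the minus strand and the Ltbp2 window chr12:84876442-84876741 on the minus strand. Capitals mark matches, on either strand, to the searched motifs. These were the SMAD element CAGAC, the site TGANTCA of AP-1 factors, the TEAD element GGAATG, the site TGACG of cyclic AMP response factors, the E-box CACGTG and the TATA box, searched as TATAAA.
Tgfb2: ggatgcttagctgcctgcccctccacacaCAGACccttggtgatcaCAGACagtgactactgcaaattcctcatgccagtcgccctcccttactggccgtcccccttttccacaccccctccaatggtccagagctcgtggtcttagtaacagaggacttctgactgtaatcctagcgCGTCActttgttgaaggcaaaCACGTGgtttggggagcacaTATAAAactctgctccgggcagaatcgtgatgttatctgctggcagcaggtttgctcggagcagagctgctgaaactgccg
Ltbp2: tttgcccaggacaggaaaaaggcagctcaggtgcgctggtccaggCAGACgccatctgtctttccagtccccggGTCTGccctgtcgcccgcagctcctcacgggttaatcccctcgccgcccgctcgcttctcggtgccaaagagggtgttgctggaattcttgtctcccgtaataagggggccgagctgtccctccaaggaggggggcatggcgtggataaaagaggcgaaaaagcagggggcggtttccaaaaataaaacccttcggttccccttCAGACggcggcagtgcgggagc
The Tgfb2 window holds CAGAC 2 times, with the first base of the matches at -221 and -204 from the start. It also holds TGACG read on the opposite strand at -72, CACGTG at -51 and TATAAA at -31. The Ltbp2 window holds CAGAC 3 times, at -205, at -176 read on the opposite strand and, downstream of the start, at 28. It holds none of the other motifs. No matches overlapped within these 2 windows. CAGAC occurs, in any number of copies, in 49.6% of the 32851 RefSeq windows of this length, TGACG in 20.8%, CACGTG in 7.15% and TATAAA in 13.6%, while TGANTCA occurs in 7.81% and GGAATG in 14.7%. How often windows hold several copies was not counted. These matches describe the letters of the windows and no binding was measured.

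After TAC in HCN4F mice, 7 of the 10 genes rose and 2 fell at an adjusted p-value under 0.05 in edgeR's quasi-likelihood test, against 13.6% of all tested genes in either direction (7.2% higher and 6.41% lower). All 3 ligands (Tgfb1, Tgfb2, Tgfb3), the type I receptor Tgfbr1 and the binders Ltbp2, Ltbp3 and Ltbp4 were higher. The co-receptor Tgfbr3 and the binder Ltbp1 were lower, and the type II receptor Tgfbr2 did not pass. The median log2 fold change of the 10 genes was 0.39, beside -0.01 over all tested genes. When a log2 fold change beyond 1 was required as well, the threshold used in the study, Tgfb2 and Ltbp2 remained, against 2.75% of all genes. For 5 of the 10 genes the HCN4F-TAC and HCN4F-Sham libraries did not overlap, against 15.1% of all genes. The calls of Tgfb2, Tgfbr1, Tgfbr3 and Ltbp2 held whichever library of the 2 groups was left out, and the other 5 depended on single libraries. With edgeR on the HCN4F groups alone the adjusted p of these 5 (Tgfb1, Tgfb3, Ltbp1, Ltbp3 and Ltbp4) was 0.0694 to 0.127. Without HCN4F-TAC replicate 3 the log2 fold changes were 1.33 for Tgfb2, 0.46 for Tgfb1, 0.50 for Tgfb3, 0.53 for Tgfbr1, -0.77 for Tgfbr3, -0.33 for Ltbp1, 3.27 for Ltbp2, 0.49 for Ltbp3 and 0.39 for Ltbp4, and of these Ltbp1 alone no longer passed. Without HCN4F-TAC replicate 2 the calls of Tgfb2 (1.21), Tgfbr1 (0.45), Tgfbr3 (-0.56) and Ltbp2 (2.71) remained, and Tgfb1 (0.29), Tgfb3 (0.39), Ltbp1 (-0.22), Ltbp3 (0.25) and Ltbp4 (0.31) did not pass, with adjusted p of 0.087 to 0.122 in edgeR. The share of reads on mitochondrial genes was 17.1%, 20.2%, 20.9% and 21.4% in HCN4F-Sham and 17.3%, 13.9%, 18.6% and 16.8% in HCN4F-TAC replicates 1 to 4, with replicate 2 the lowest and replicate 3 the highest of the latter, and its part in these changes was not tested. In these samples of whole ventricle, fewer cells of a type and less RNA per cell cannot be told apart.

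**Figure D1:**
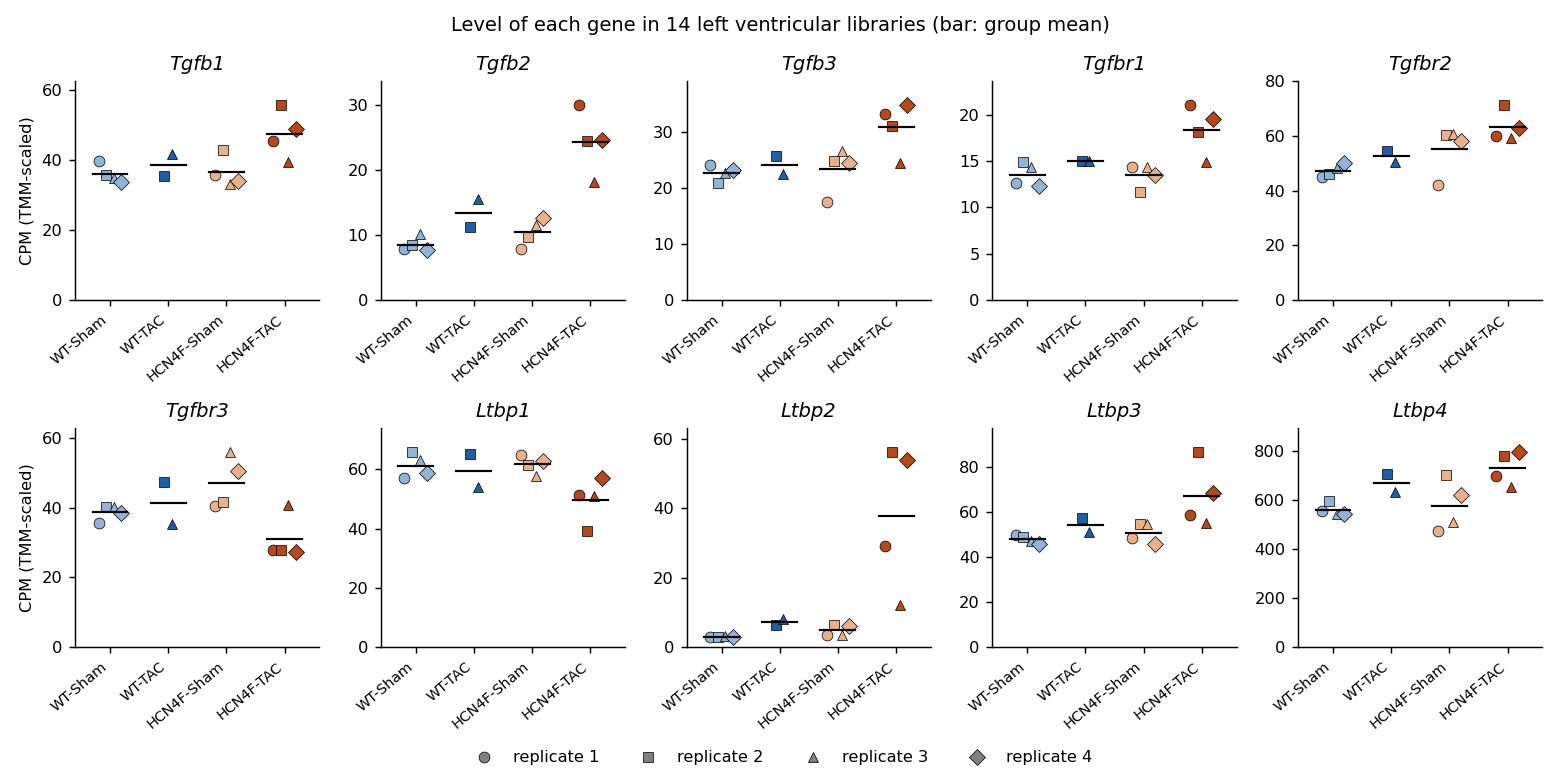
Level of each of the 10 genes in CPM (vertical axis, linear from 0) in the 14 libraries by group, with 1 symbol shape per replicate number and a bar at the group mean. Ltbp2 lies between 12.1 and 56.1 CPM in HCN4F-TAC and between 2.81 and 8.16 CPM in all other libraries, and HCN4F-TAC replicate 3 (triangle) is the library nearest to Sham in most panels.

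Tgfb2 (ENSMUSG00000039239, GRCm38 chromosome 1, 186622792 to 186705989, minus strand) encodes TGF-beta2, the ligand that needs the co-receptor betaglycan most for binding. Its level was 7.80, 8.45, 10.1 and 7.64 CPM in WT-Sham replicates 1 to 4 and 11.3 and 15.5 CPM in WT-TAC. In HCN4F-Sham it was 7.90, 9.68, 11.5 and 12.7 CPM, and in HCN4F-TAC 30.0, 24.5, 18.2 and 24.7 CPM. Every HCN4F-TAC library lay above every library of the other 3 groups, with replicate 3 the lowest of them. TAC raised Tgfb2 in HCN4F by 1.21 on the log2 scale (SE 0.17, 95% interval 0.86 to 1.57), a fold of 2.32 with an adjusted p of 0.000304 in edgeR's quasi-likelihood test. Over the 15 alternatives for this comparison the log2 fold change was 1.10 to 1.33.

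Tgfb1 (ENSMUSG00000002603, chromosome 7, 25687002 to 25705077, plus strand) encodes the ligand best known from fibrosis. It was found at 33.1 to 43.0 CPM in HCN4F-Sham and at 45.4, 55.7, 39.6 and 48.9 CPM in HCN4F-TAC. Replicate 3 of HCN4F-TAC fell inside the Sham range, so the groups overlapped. The log2 fold change was 0.38 (SE 0.10) with an adjusted p of 0.0228 in edgeR's test. Without HCN4F-Sham replicate 3 or 4, or HCN4F-TAC replicate 2 or 4, the adjusted p from edgeR was 0.0579 to 0.0992, and without HCN4F-TAC replicate 3 it was 0.00588.

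Tgfb3 (ENSMUSG00000021253, chromosome 12, 86056745 to 86079041, minus strand) encodes the third ligand isoform. Its HCN4F-Sham libraries held 17.5 to 26.5 CPM, and those of HCN4F-TAC 33.1, 31.0, 24.5 and 34.7 CPM, again with replicate 3 inside the Sham range. The log2 fold change of 0.40 (SE 0.12) reached an adjusted p of 0.0368 in edgeR, which was between 0.0521 and 0.11 when HCN4F-Sham replicate 1, 2 or 4 or HCN4F-TAC replicate 1, 2 or 4 was left out. The gene lies on the opposite strand within Ttll5, which had 251 to 427 counts per library. The annotation gives the pair no exon bases in common, and whether the counting used strand is not given in the sources used here.

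The makeup of the ligand transcripts, counted per kilobase, also differed between groups. Tgfb2 made up 9.59% ± 1.36 (SD, n = 4) of the 3 ligands in WT-Sham, 13.5% ± 2.45 (n = 2) in WT-TAC, 11.3% ± 1.87 (n = 4) in HCN4F-Sham and 18.4% ± 2.14 (n = 4) in HCN4F-TAC. The HCN4F-TAC libraries, at 17.2% to 21.6%, lay above all others, of which the highest was WT-TAC replicate 3 at 15.2%. Tgfb1 made up 46.6% ± 1.91 in WT-Sham and 41.5% ± 3.36 in HCN4F-TAC, and Tgfb3 43.8% ± 1.78 and 40.1% ± 2.04. Counted per kilobase of exon, Tgfb3 had the larger share of this pair in 6 of the 14 libraries, an order that depends on the length used. These shares follow from the levels already tested and were not tested again. With reads in place of reads per kilobase, the Tgfb2 share was 12.7% in WT-Sham and 23.6% in HCN4F-TAC. By reads Tgfb1 had a larger share than Tgfb3 in every library, with 53.6% against 33.7% in WT-Sham and 46.3% against 30.0% in HCN4F-TAC.

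**Figure D2:**
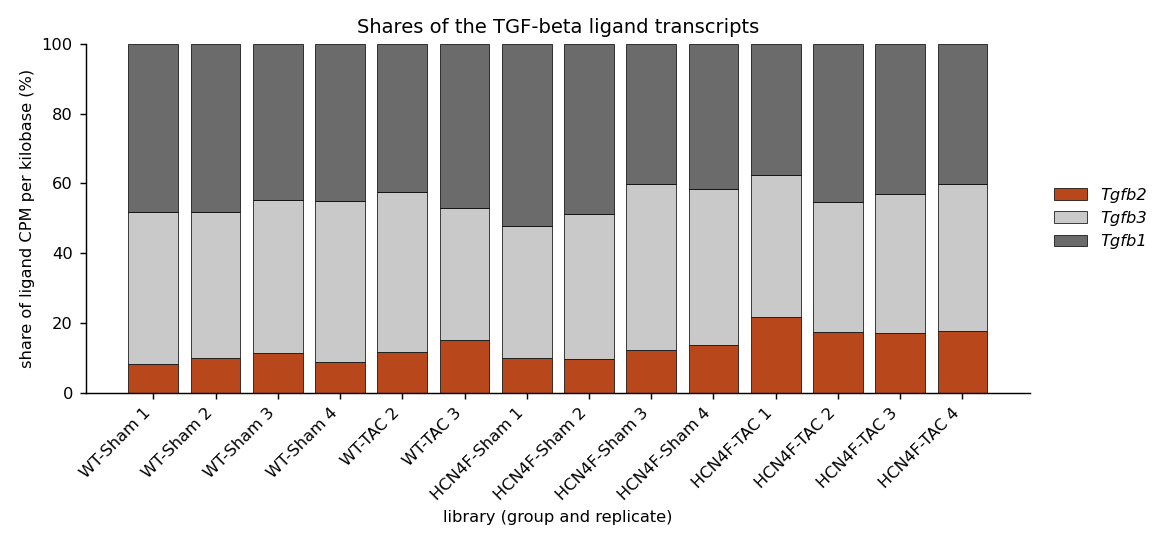
Share of Tgfb1, Tgfb2 and Tgfb3 among the ligand transcripts in each library, in percent of their summed CPM per kilobase of exon, with bars stacked to 100%. Tgfb2, at the foot of each bar, is between 17.2% and 21.6% in the HCN4F-TAC libraries and between 8.23% and 15.2% in the others.

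Among the receptors, Tgfbr1 (ENSMUSG00000007613, chromosome 4, 47353222 to 47414931, plus strand), the type I receptor kinase that phosphorylates SMAD proteins, was found at 14.3, 11.7, 14.4 and 13.5 CPM in HCN4F-Sham and at 21, 18.1, 14.9 and 19.5 CPM in HCN4F-TAC. The groups did not overlap, although HCN4F-TAC replicate 3 exceeded the highest Sham library only narrowly. The log2 fold change was 0.45 (SE 0.11) with an adjusted p of 0.00997 in edgeR's test, and at most 0.0367 with any library left out.

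Tgfbr2 (ENSMUSG00000032440, chromosome 9, 116084293 to 116175360, minus strand), the type II receptor that binds the ligand and activates the type I kinase, lay at 42.2, 60.4, 60.7 and 58.0 CPM in HCN4F-Sham and at 60.0, 71.2, 59.4 and 62.8 CPM in HCN4F-TAC. HCN4F-Sham replicate 1 was far below the other 3, and the groups overlapped. The gene's log2 fold change of 0.20 (95% interval -0.02 to 0.41) had an adjusted p of 0.215 in edgeR, and no alternative brought it past the threshold. It is on the chromosome of Hcn4, at a distance of 57.2 Mb.

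Tgfbr3 (ENSMUSG00000029287, chromosome 5, 107106570 to 107289629, minus strand) encodes betaglycan, a co-receptor that presents TGF-beta2 to the signalling receptors when it is on the cell surface and holds ligand back when it is shed. Its level was 40.5, 41.8, 55.9 and 50.7 CPM in HCN4F-Sham and 28.0, 27.8, 40.9 and 27.3 CPM in HCN4F-TAC. Replicates 1, 2 and 4 of HCN4F-TAC lay below every library of the other groups, whereas replicate 3 was level with HCN4F-Sham replicate 1. The gene fell by 0.61 on the log2 scale (SE 0.14, adjusted p of 0.00936 in edgeR), and by 0.77 without HCN4F-TAC replicate 3. Relative to Tgfbr1, Tgfbr3 had 3.52 ± 0.473 times the reads in HCN4F-Sham and 1.75 ± 0.663 times in HCN4F-TAC (SD, n = 4 each), with no overlap between 2.83 to 3.89 and 1.33 to 2.74.

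Of the latent binders, Ltbp2 (ENSMUSG00000002020, chromosome 12, 84783212 to 84876532, minus strand) showed the largest change of the 10 genes. Its product is a matrix protein of elastic fibres and the one member of its family that does not bind latent TGF-beta. It was found at 2.81, 2.94, 3.25 and 3.01 CPM in WT-Sham and at 6.41 and 8.16 CPM in WT-TAC. In HCN4F-Sham the level was 3.43, 6.34, 3.47 and 6.07 CPM, and in HCN4F-TAC 29.2, 56.1, 12.1 and 53.9 CPM. The libraries of HCN4F-TAC differed among themselves by more than 4 times, yet the lowest of them, replicate 3, exceeded every library of the other groups. At 342 to 1703 counts per HCN4F-TAC library and 76 to 92 in WT-Sham, counting error was small beside this spread. The log2 fold change in HCN4F was 2.97 (SE 0.43, 95% interval 2.02 to 3.92), a fold of 7.84 with an adjusted p of 0.00139 in edgeR, and over all 15 alternatives it was 2.71 to 3.27. Ltbp2 reads were 0.0783 ± 0.0256 of those of Ltbp1 in HCN4F-Sham and 0.796 ± 0.515 of them in HCN4F-TAC (SD, n = 4 each).

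Ltbp1 (ENSMUSG00000001870, chromosome 17, 75005568 to 75392512, plus strand), which anchors the latent complex in the matrix, went the other way. Its libraries held 64.9, 61.3, 57.8 and 62.7 CPM in HCN4F-Sham and 51.3, 39.1, 51.0 and 57.2 CPM in HCN4F-TAC, without overlap. The gene fell by 0.31 on the log2 scale (SE 0.10), with an adjusted p of 0.0441 in edgeR's test. This call was close to the threshold: with HCN4F-Sham replicate 1, 2 or 4 or HCN4F-TAC replicate 1, 2 or 3 left out, the adjusted p from edgeR was 0.0536 to 0.117.

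Ltbp3 (ENSMUSG00000024940, chromosome 19, 5740904 to 5758532, plus strand), another carrier of the latent complex, was at 48.7, 54.8, 54.6 and 45.8 CPM in HCN4F-Sham and 58.8, 86.7, 55.1 and 68.7 CPM in HCN4F-TAC. The groups did not overlap, and replicate 2 was the highest. The log2 fold change was 0.40 (SE 0.11) with an adjusted p of 0.0252 in edgeR, and of 0.0573 to 0.0879 without HCN4F-Sham replicate 1 or 4 or HCN4F-TAC replicate 2 or 4.

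Ltbp4 (ENSMUSG00000040488, chromosome 7, 27305136 to 27337692, minus strand), which takes part in elastic fibre assembly and binds latent TGF-beta1, was at 476, 702, 510 and 620 CPM in HCN4F-Sham and 697, 780, 654 and 795 CPM in HCN4F-TAC, and the groups overlapped. Its log2 fold change was 0.34 (SE 0.11) with an adjusted p of 0.0399 in edgeR, and of 0.0584 to 0.122 without HCN4F-Sham replicate 1 or 3 or HCN4F-TAC replicate 1, 2 or 4.

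**Figure D3:**
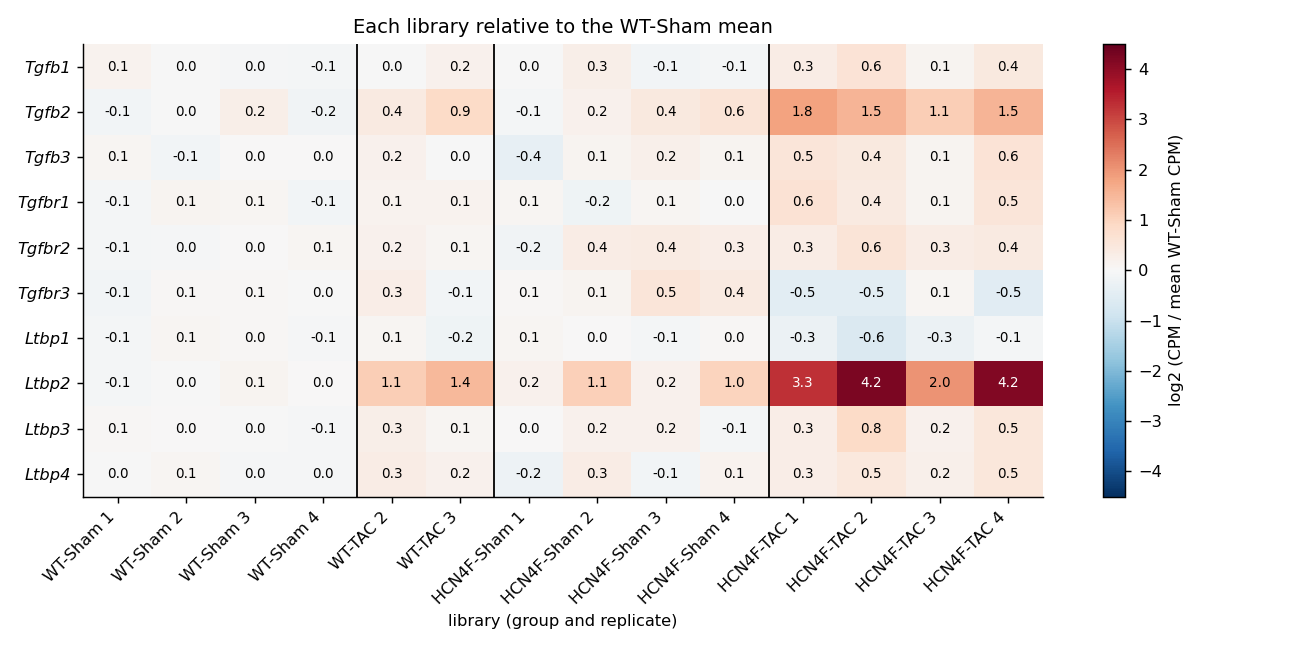
Each of the 14 libraries (columns, by group and replicate) relative to the WT-Sham mean of each gene (rows), as log2 of the ratio of CPM values, with the value printed in each cell and red for higher, blue for lower. Ltbp2 and Tgfb2 are the rows with the strongest red in HCN4F-TAC, and HCN4F-TAC replicate 3 is paler than its group.

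In WT mice, none of the 10 genes passed after TAC in edgeR's test, against 4.54% of all tested genes. At an unadjusted p under 0.05 there were 2 of 10, Tgfb2 and Ltbp2, against 22% of all genes. Tgfb2 had a log2 fold change of 0.66 (SE 0.20, 95% interval 0.23 to 1.09) with an adjusted p of 0.0746, and Ltbp2 one of 1.29 (SE 0.54, 95% interval 0.10 to 2.47) with an adjusted p of 0.19, both in edgeR. The WT-TAC libraries of 6 genes (Tgfb2, Tgfbr1, Tgfbr2, Ltbp2, Ltbp3 and Ltbp4) lay above all WT-Sham libraries, where 19.2% of all genes did so. The other members had log2 fold changes of -0.04 to 0.26, and the intervals of all of them included 0. The choice of fit mattered here. DESeq2 on all groups called 1 of the 10, Tgfb2 (adjusted p of 0.0274), against 8.76% of all genes in that fit. On the WT groups alone edgeR called 3 of the 10, Tgfb2 (0.0155), Ltbp2 (0.000634) and Ltbp4 (0.0215), against 13.6% of all genes, and DESeq2 the same 3 against 14.1%.

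In Sham mice, HCN4F and WT were compared to see whether the knock-in alone went with a difference. None of the 10 genes passed in edgeR's test, against 0.471% of all genes, and 1 of 10, Tgfbr2, had an unadjusted p under 0.05, against 15.2%. The log2 fold change of Tgfbr2 was 0.22 (95% interval 0.01 to 0.44, adjusted p of 0.3 in edgeR). It was 0.33, with an adjusted p of 0.0221, when HCN4F-Sham replicate 1, the low library, was left out. That library also had the lowest summed endothelial markers (697 CPM, 949 to 1270 CPM in the other 3) and mural markers (857 CPM, 1110 to 1190 CPM) of its group, and their part in its level was not tested. All HCN4F-Sham libraries lay above all WT-Sham libraries for Tgfbr3 and Ltbp2, whose log2 fold changes were 0.29 (95% interval 0.00 to 0.58) and 0.68 (-0.36 to 1.73). Such a separation was found for 3.89% of all genes.

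Between the TAC groups, HCN4F against WT, none of the 10 genes passed either, against 0.111% of all genes in edgeR's test. At an unadjusted p under 0.05, however, there were 9 of the 10 genes, against 12.5% of all tested genes. The mitochondrial share of reads was 18.4% and 20% in WT-TAC, against 13.9% to 18.6% in HCN4F-TAC, and its part was not tested. The comparison shares the HCN4F-TAC libraries with that of TAC and Sham in HCN4F, so the values stand side by side without a test of their likeness. Ltbp2 had a log2 fold change of 2.37 (SE 0.54, 95% interval 1.18 to 3.56, adjusted p of 0.121 in edgeR) and Tgfb2 one of 0.86 (SE 0.21, 95% interval 0.42 to 1.29, adjusted p of 0.11). For both of these and for Tgfbr2 the HCN4F-TAC libraries lay above both WT-TAC libraries, as they did for 11.3% of all genes. Tgfbr3 had a log2 fold change of -0.41 (95% interval -0.77 to -0.06), Ltbp1 one of -0.26, and Tgfb1, Tgfb3, Tgfbr1, Tgfbr2 and Ltbp3 values of 0.27 to 0.36. Ltbp4, at 0.12, was the exception. Without HCN4F-TAC replicate 3, edgeR called 3 of the 10: Tgfb2 (0.97, adjusted p of 0.0108), Ltbp2 (2.66, adjusted p of 0.00091) and Tgfbr3 (-0.58, adjusted p of 0.0306), while 2.97% of all genes passed. Without HCN4F-TAC replicate 2 it called none of the 10, against 0.0854% of all genes. The adjusted p was then 0.247 for Tgfb2 (0.84) and Ltbp2 (2.10) and 0.54 for Tgfbr3 (-0.37) in edgeR, and the log2 fold changes of Tgfb1, Ltbp1 and Ltbp3 went from 0.29, -0.26 and 0.31 to 0.19, -0.17 and 0.15. DESeq2 on all groups called Tgfb2 (adjusted p of 0.00973) and Ltbp2 (adjusted p of 0.00142), against 1.59% of all genes.

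**Figure D4:**
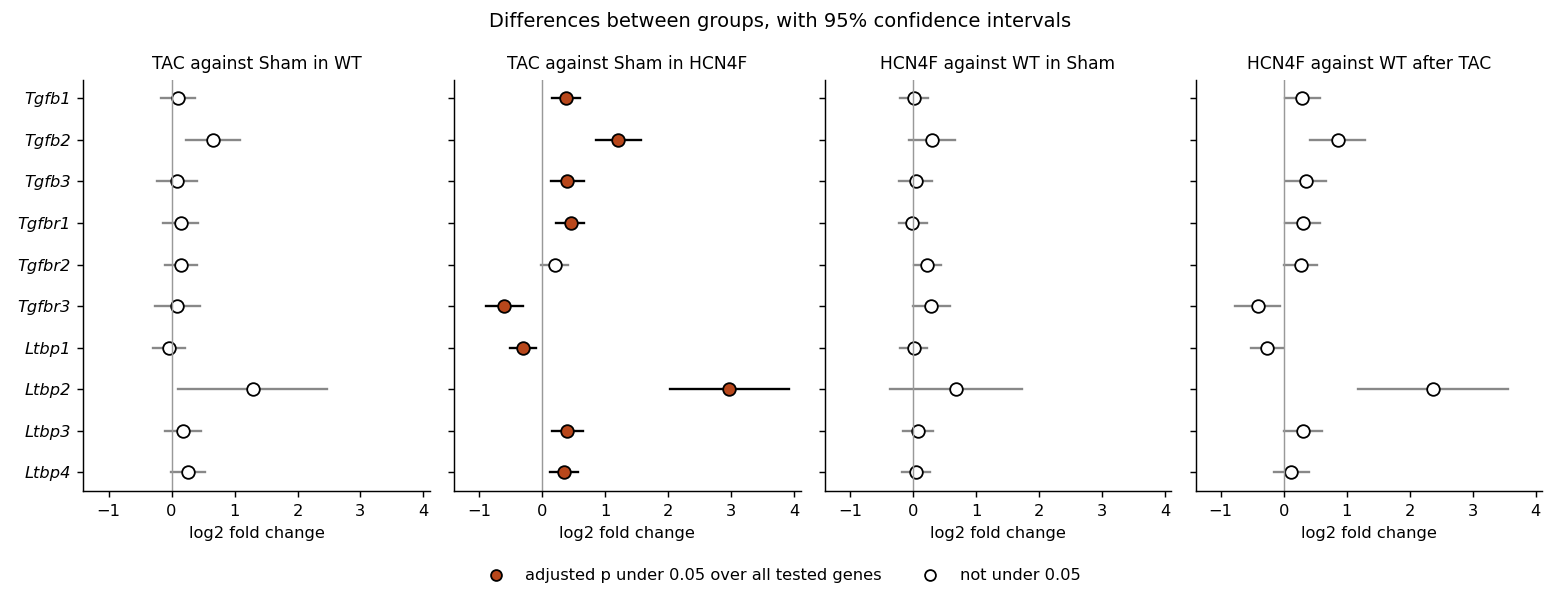
Log2 fold change of each gene (point) with its 95% confidence interval (line) in 4 comparisons from the same edgeR fit, with filled points for an adjusted p under 0.05. Filled points occur for 9 genes in TAC against Sham in HCN4F and in no other panel, while in HCN4F against WT after TAC the intervals of 9 genes exclude 0.

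Whether the response to TAC differed between the genotypes was tested as an interaction. None of the 10 genes and none of all tested genes passed in edgeR, with 9.27% of all genes at an unadjusted p under 0.05, and DESeq2 on all groups called 33 genes, none of them a member. The members at an unadjusted p under 0.05 were 2: Tgfbr3, with a difference of -0.70 on the log2 scale (SE 0.22, 95% interval -1.17 to -0.24, adjusted p of 0.437), and Ltbp2, with one of 1.68 (SE 0.70, 95% interval 0.14 to 3.22, adjusted p of 0.5). For Tgfb2 the difference was 0.55 (95% interval -0.01 to 1.12, adjusted p of 0.539). Without HCN4F-TAC replicate 3, Tgfbr3 passed with an adjusted p of 0.0358 in edgeR's test, as did 0.51% of all genes. Without HCN4F-TAC replicate 2, the adjusted p in edgeR was 0.658 for Tgfbr3 (-0.67) and 0.693 for Ltbp2 (1.41). The 9 calls after TAC in HCN4F and the 0 in WT are therefore not shown to differ by this test.

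The genes around the members in the pathway were followed in 3 lists, written with the study's tables and earlier results of these data known. Their counts, given beside the share of all genes, are therefore not independent evidence. Of the 18 genes of the latent complex and its activation, 10 rose after TAC in HCN4F in edgeR's test and none fell, against 7.2% of all genes higher and 6.41% lower, with a median log2 fold change of 0.42. Thbs1, whose product thrombospondin-1 can release active ligand, rose by 2.53 (SE 0.34, adjusted p of 0.000815) from 17.8 ± 5.35 to 103 ± 40.2 CPM (SD, n = 4 each). Fbn1, for the fibrillin to which binding proteins attach, rose by 0.99 (adjusted p of 0.000453), Fn1, for fibronectin, by 0.82 (adjusted p of 0.0114), Emilin1, for a matrix protein that limits ligand maturation, by 0.51 (adjusted p of 0.00593) and Itgb5, for an integrin chain that pairs with alpha-v, by 0.34 (adjusted p of 0.0121). Itgav, Itgb1, Itgb3, Mmp2 and Bmp1 completed the 10. The count was 4 with edgeR on the HCN4F groups alone and 6 without HCN4F-TAC replicate 2.

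Of the 20 genes of signal transduction and feedback, 7 rose and none fell in the same edgeR test, again against 7.2% and 6.41% of all genes, with a median log2 fold change of 0.15. Pmepa1 rose by 0.80 (adjusted p of 0.000234), Skil by 0.56 (0.00387), Smurf2 by 0.39 (0.00573), Smurf1 by 0.38 (0.00624) and Ski by 0.33 (0.00485), Bambi, for a decoy receptor, by 0.78 and Map3k7, for a kinase of the SMAD-independent arm, by 0.32. The SMAD genes did not pass: Smad2 had a log2 fold change of 0.11, Smad3 of 0.02 and Smad4 of 0.00, and the inhibitory Smad7 one of 0.25 with a 95% interval of 0.03 to 0.47.

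Of 17 known target genes, 13 rose and none fell, against the same 7.2% and 6.41% of all genes, with a median log2 fold change of 1.00. The list shares Fn1, Skil, Pmepa1 and Smad7 with the other 2 lists. Cilp, for a matrix protein of cartilage and scarred heart, rose by 3.27 (SE 0.43, adjusted p of 0.000728 in edgeR's test) from 5.5 ± 1.35 to 53.1 ± 32.5 CPM (SD, n = 4 each). Tnc, for tenascin-C, rose by 1.63 (adjusted p of 0.000465), Lox, for a collagen cross-linking enzyme, by 1.2 (adjusted p of 0.000495) and Col1a2, for a collagen I chain, by 0.90 (adjusted p of 0.00114). Ccn2, Postn, Col1a1, Col3a1 and Timp1 were also among those that rose. Of these Timp1 did not pass in 9 of 15 alternatives, with an adjusted p of up to 0.0834, 6 of them with a single library left out. The contractile genes Acta2 and Tagln had log2 fold changes of -0.33 and -0.04 and did not pass. In WT after TAC, 2 of 18, 3 of 20 and 2 of 17 genes rose in edgeR's test, against 2.92% of all genes, and none fell. Among them were Thbs1 (1.82, adjusted p of 0.0296 in edgeR), Itgav (0.50), Smurf2 (0.51), Bambi (0.99) and Skil (0.51), which counts in the last 2 lists. These WT counts were 0 to 7, 0 to 7 and 0 to 8 over the alternatives. In the comparisons between genotypes and in the interaction no gene of the lists passed in edgeR with all libraries. Without HCN4F-TAC replicate 3, 9 of the 17 target genes passed as higher in HCN4F than in WT after TAC and 6 in the interaction, where 2.97% and 0.51% of all genes passed in either direction. Without HCN4F-TAC replicate 2 there were none in either. DESeq2 on all groups called 7 target genes after TAC, against 1.59% of all genes.

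Markers of cell types moved in part with these genes. Of 6 fibroblast markers 1, Lum, rose after TAC in HCN4F (0.51 on the log2 scale), and their summed level was 1250 to 1660 CPM in HCN4F-Sham and 1180 to 1480 CPM in HCN4F-TAC. It was 1480 to 1600 CPM in WT-Sham and 1120 to 1380 CPM in WT-TAC, where 1 marker, Dpt, fell (-0.47, adjusted p of 0.0253 in edgeR). Between the TAC groups all 6 had positive log2 fold changes for HCN4F against WT, with a median of 0.31, and none passed. Of 6 activated fibroblast markers 4 rose, against 7.2% of all genes: Comp by 3.18, Cthrc1 by 2.18, Postn by 2.07 and Meox1 by 1.43. Postn and Acta2 are also in the list of known target genes, so the counts of these lists are not independent. Cthrc1 rested on few reads, at 0 to 0.274 CPM in HCN4F-Sham and 0.141 to 0.955 CPM in HCN4F-TAC. The summed level of the 6 activated fibroblast markers was 157 to 234 CPM in HCN4F-Sham and 282, 313, 190 and 337 CPM in HCN4F-TAC, so that replicate 3 was again the lowest. It was 178 CPM in both WT-TAC libraries and 199 to 252 CPM in WT-Sham. Most of this sum was Acta2, at 164 to 213 CPM in WT-Sham and 124 and 127 CPM in WT-TAC, whereas Postn was at 17.7 to 20.6 CPM in WT-Sham and 32.5 and 28.9 CPM in WT-TAC. Of 6 cardiomyocyte markers 4 fell and 1 rose after TAC in HCN4F, against 6.41% and 7.2% of all genes. After TAC in WT 2 of these 6 fell and none rose, against 4.54% of all genes in either direction. The cardiomyocyte sums were 56900 to 60300 CPM in HCN4F-Sham and 48000 to 54100 CPM in HCN4F-TAC, 64700 to 67100 CPM in WT-Sham and 59900 to 60000 CPM in WT-TAC. No endothelial, mural or macrophage marker passed, and the macrophage sum was 134 to 172 CPM in HCN4F-Sham and 123 to 205 CPM in HCN4F-TAC. It was 132 to 160 CPM in WT-Sham and 125 to 131 CPM in WT-TAC. For HCN4F against WT after TAC, 5 of 6 macrophage markers had positive log2 fold changes, with a median of 0.46. So did 5 of 6 activated fibroblast markers, with a median of 1.34, and none of either list passed. Cthrc1 was at 0 in 2 Sham libraries, and no other marker of these lists was at 0 in any library. The part of cell makeup in the changes of the TGF-beta genes was not tested.

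The tested genes whose pattern over the 14 libraries was most like that of a member were found by the root mean square difference of centred log2 CPM, among 12554 candidates. For Ltbp2 they included Cilp (0.46) and Nlrc3 (0.47), where the standard deviation of Ltbp2 itself was 1.52. For Tgfb2, with a standard deviation of 0.67, they were Vcan (0.19), Fstl3 (0.23) and Fhl1 (0.23). For Ltbp3 the nearest was Itgb5 (0.09), for Ltbp4 Wwtr1 (0.07), for Tgfb1 Rdh11 (0.07), for Tgfb3 Nid1 (0.10), for Tgfbr1 Sept2 (0.10), for Tgfbr3 Tfdp2 (0.12) and for Ltbp1 Herc1 (0.10). These genes vary less, with standard deviations of 0.20 to 0.31, so small differences are reached more easily. The likeness describes levels in these libraries, which share their groups.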

How the data were processed

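Poly(A) RNA of the left ventricle was sequenced on an Illumina platform. The authors deposited raw counts, whole numbers of reads per gene without normalization, and GRCm38 is the build in the submitters' processing notes. Aligner, counting program and strand setting are not given in the sources used here. Of the 16 samples the study describes, 14 libraries were used, and 2 further columns of per-sample values in the table, both named as TAC and WT, match no sample label and were not used, so that WT-TAC rests on 2 libraries.

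Library groups were taken from the sample labels, and nothing pairs samples across groups. Counts were scaled with TMM and filtered with filterByExpr by group in edgeR 4.0.16 (R 4.3.3). All 14 libraries entered 1 fit with a mean per group, and contrasts were tested with edgeR's quasi-likelihood test (robust) adjusted by the Benjamini-Hochberg method across the 15292 genes kept. Tests are two-sided. The study's methods call the libraries of a group biological replicates. The steps were tested on simulated data. No 2 libraries of a group agreed within sampling noise.

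The members and the lists of pathway and marker genes were chosen with earlier results of these data and the study's tables known. All members are named. Of each pathway list, genes past the test may be named and the 5 with the smallest adjusted p in TAC against Sham in HCN4F are given with values. The 3 genes of mean CPM of at least 1 most like each called member in pattern were looked up. Some genes that these rules would name are not reported here. Genes named outside this rule (Smad2, Smad3, Smad4, Smad7, Acta2, Tagln, Myl7, Myl4, Sln, Bmp10, Tbx5 and the markers past the test) were chosen after their values were seen. Of the marker lists, red blood cell and platelet genes had no calls after TAC in HCN4F, Schwann cell genes had 3 and adipocyte genes 1, all lower, mesothelial genes had none, and of the atrial genes 1 (Nppa) was higher.

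Positions and exon lengths came from GENCODE mouse release 21 on GRCm38, which held 99.5% of the table's gene IDs, and promoter windows from RefSeq. Alternatives were DESeq2 1.42.0 fitted to every group or to the pair compared, edgeR fitted to that pair, scaling by DESeq2's size factors, testing every gene with reads or those with a mean CPM of at least 1, a replicate block, the study's fold threshold and leaving out each library in turn. Those for the pathway lists were added after the data were seen. Depth was 22309914 to 35210939 counts, and a count of 0 would allow up to 3 reads, for counting error only. Figures were drawn with matplotlib 3.10.9.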

Additional observations from a re-analysis of the deposited data

Results flagged for a closer look

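Among 30 groups of 4 libraries, each a member gene in 1 group, 2 held a library far from the others by Dixon's test, where chance gives about 1 in 20, or 1.5. The level of Tgfbr2 was 42.2 CPM in HCN4F-Sham replicate 1, against 58.0 to 60.7 CPM in the other 3 HCN4F-Sham libraries. The endothelial and mural marker sums of that library, at 697 and 857 CPM, were also the lowest of its group, and their part was not tested. The level of Tgfbr3 was 40.9 CPM in HCN4F-TAC replicate 3, against 27.3 to 28.0 CPM in the other 3 HCN4F-TAC libraries.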

How the results depend on the processing

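The number of members past the test after TAC in HCN4F was 9 as reported (13.6% of all genes), 2 with the fold threshold added (2.75%), 4 with edgeR on the compared groups (8.98%), 6 with DESeq2 on the compared groups (11.1%), 9 with DESeq2 on all groups (15.4%), and 4 (without HCN4F-TAC replicate 2, 8.73%) to 8 (without HCN4F-TAC replicate 3, 15.6%) with a library left out. After TAC in WT it was 0 as reported and with any library left out, 1 with DESeq2 on all groups and 3 with either tool on the compared groups. Leaving out a WT-TAC library leaves 1 in that group, which is then assumed to vary like the other groups, so a count of 0 there says little about stability. Between the Sham groups it was 0 to 1 with a library left out (1 without HCN4F-Sham replicate 1). Between the TAC groups it was 2 with DESeq2 on all groups, 1 with DESeq2 on the compared groups and 0 to 3 with a library left out (3 without HCN4F-TAC replicate 3). For the interaction it was 0 to 1 (1 without HCN4F-TAC replicate 3). The cause of these moves was not tested.

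Of 750 alternative values of the members' changes, 680 kept their direction and side of the threshold, 35 fell below it, 15 passed it and 20 changed sign. All sign changes came from leaving out a library, in results whose value is near 0. After TAC in WT the ranges with a library left out were -0.02 to 0.21 for Tgfb1, -0.01 to 0.18 for Tgfb3, -0.13 to 0.30 for Tgfbr3 and -0.18 to 0.09 for Ltbp1. Between the Sham groups they were -0.07 to 0.07 for Tgfb1, -0.03 to 0.15 for Tgfb3, -0.05 to 0.05 for Tgfbr1, -0.02 to 0.05 for Ltbp1 and -0.07 to 0.12 for Ltbp4. For the interaction they were -0.07 to 0.10 for Tgfbr2 and 0.00 to 0.19 for Ltbp4.

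The replicate numbers did not pair the libraries: the 12 correlations of same-numbered libraries' deviations from their group means were -0.12 to 0.16, with 2 over 0.1. With the number as a block, 7 members passed after TAC in HCN4F (12.9% of all genes) and 0 in each other comparison, and over all genes the calls after TAC in WT went from 694 to 225, those between the Sham groups from 72 to 41 and those between the TAC groups from 17 to 8. Over all genes, calls with DESeq2 on all groups were 1194 after TAC in WT, 334 between the Sham groups, 226 between the TAC groups and 33 for the interaction, where edgeR called 0. With edgeR on the compared groups they were 2009 after TAC in WT, 1287 after TAC in HCN4F (2081 as reported) and 3 between the TAC groups. Without HCN4F-TAC replicate 3 they were 454 between the TAC groups and 78 for the interaction. With 2 WT-TAC libraries, comparisons that use them are limited: without WT-TAC replicate 3, 11 genes were called after TAC in WT.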
